A study of Mus musculus with 28 samples.

Results

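Gene expression was compared between rods of rd1 and wild-type (WT) mice at postnatal day 4 (P4). The comparison takes the 2 rd1 and the 3 WT libraries of that age, 5 of the 28 libraries of the study, chosen by their labels and not by any measured value. The other 23 libraries come from the same 2 genotypes at P2, P6, P8 and P10. The rd1 mice were homozygous for the rd1 allele of Pde6b (Pde6b rd1/rd1) and carried the TgNrlp-GFP transgene, and the WT mice carried the same transgene without the allele. The transgene places green fluorescent protein under the promoter of Nrl, a rod transcription factor. Retinas of both genotypes were dissociated with papain, and GFP-positive cells were purified by flow sorting, so both groups share the reporter, the dissociation and the sort. Poly(A) RNA was made into stranded libraries. The labels give neither the strain, the sex nor the number of mice behind a library, and they do not say that libraries of a group came from separate mice. Adjusted p-values therefore measure the spread between these libraries, which may be technical.

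Rods detect light through a cascade in which the G protein transducin activates a cGMP phosphodiesterase. Pde6b encodes one of the catalytic subunits of that enzyme. The phosphodiesterase lowers cGMP, which closes a cGMP-gated cation channel, while guanylate cyclases restore cGMP, and proteins such as recoverin and arrestin take part in shutting the cascade off. Mice that lack the subunit lose their rods early in life, but at P4 rods are still being born and maturing and have not yet formed outer segments.

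The sorted cells carried rod transcripts in every library. Levels are given in CPM, the deposited counts scaled to a common library total, in the order rd1 library 1, rd1 library 2, WT library 1, WT library 2, WT library 3. Nrl stood at 2562, 2290, 2297, 1726 and 1700 CPM, and Nr2e3, its target and partner, at 2646, 2426, 3258, 1967 and 2300 CPM. Rpe65, which defines the pigment epithelium, was at or near 0 in all 5, with at most 0.141 CPM. Gm42418, a gene that overlaps ribosomal RNA sequence, read 114 and 292 CPM in rd1 against 26.6, 26.5 and 42.2 CPM in WT, and its part in the differences below was not tested. Xist and the Y-linked Ddx3y were both read in all 5 libraries, Xist at 441 to 3421 CPM. The rd1 libraries held 18.8 and 20.7 M counts and the WT libraries 13.1 to 14.1 M, so at P4 genotype and depth cannot be told apart. With all libraries thinned to equal depth, 261 protein-coding genes passed the test against 317 unthinned, and 246 genes passed in both.

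Of 14890 protein-coding genes tested, 317 (2.13%) differed between rd1 and WT rods at an adjusted p under 0.05, by edgeR's quasi-likelihood test with Benjamini-Hochberg adjustment over all 18608 genes tested. Over all classes of gene the share was 2.95%, 549 genes. Of the 317 protein-coding genes, 212 (1.42% of those tested) were higher in rd1 and 105 (0.705%) were lower. The 2 rd1 libraries lay outside the range of the 3 WT libraries for 316 of the 317. Among all protein-coding genes tested the same held for 37%, with 19.5% having both rd1 libraries above all WT libraries and 17.5% below. The median log2 fold change was 0.00 over all genes and 0.04 over protein-coding genes. Fold changes below are rd1 over WT on the log2 scale with a standard error.

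**Figure D1:**
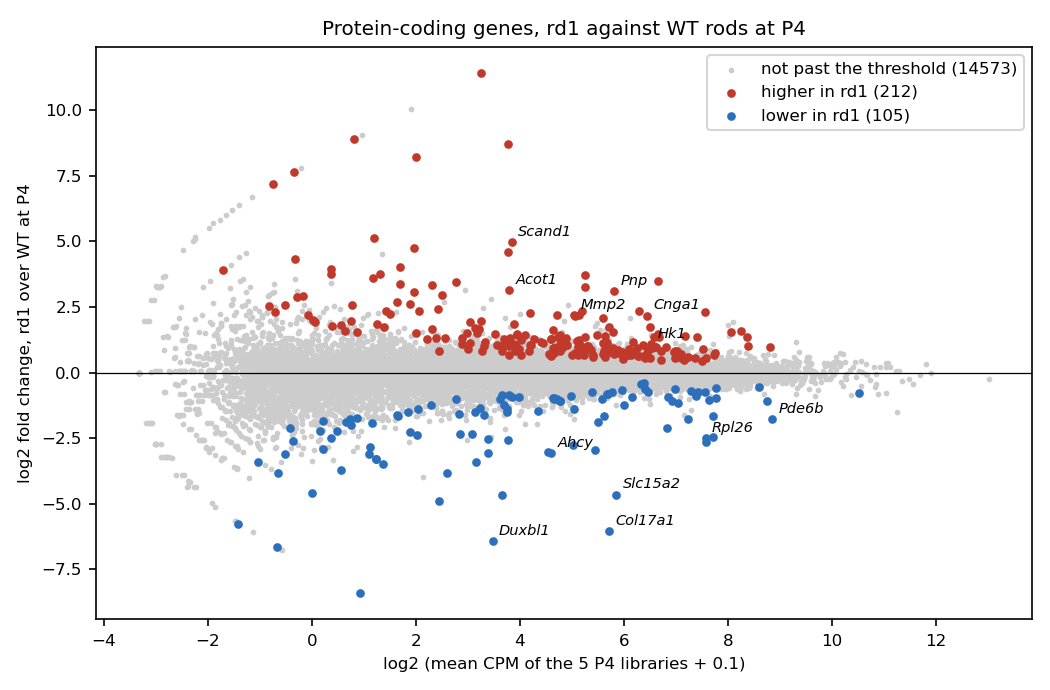
Log2 fold change of each of 14890 protein-coding genes at P4, rd1 over WT, on the y axis against log2 of the mean CPM of the 5 libraries plus 0.1 on the x axis. Red points are the 212 genes higher and blue points the 105 genes lower at an adjusted p under 0.05, grey points the rest, and Col17a1 and Duxbl1 are the labelled genes farthest below 0.

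The mutated gene itself was read at a lower level in the rd1 libraries. Pde6b (ENSMUSG00000029491) lies on chromosome 5 between 108388391 and 108432397 on GRCm38. Its level was 205 and 169 CPM in the rd1 libraries against 936, 488 and 519 CPM in the WT libraries, so the groups did not overlap. The difference was -1.77 ± 0.34 (SE, adjusted p = 0.00349 by edgeR's quasi-likelihood test). It was -1.61 without rd1 library 2, with an adjusted p of 0.110. Of its transcripts, the coding Pde6b-001 had a mean of 111 CPM in rd1 against 500 CPM in WT, and the intron-retaining Pde6b-002 of 63.4 against 120 CPM. The label of each library thus matched the level of the mutated gene.

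Most other genes of the phototransduction cascade had positive differences, and 2 of them passed the test. Of 26 genes tested, Cnga1 and Rcvrn rose and Pde6b fell, against backgrounds of 1.42% and 0.705%. Cnga1, the main subunit of the rod cGMP-gated channel, read 189 and 136 CPM in rd1 against 58.6, 28.2 and 23.8 CPM in WT. Both rd1 libraries lay more than 70 CPM above the highest WT library. The difference was 2.17 ± 0.39 (adjusted p = 0.00184, edgeR), and it passed whichever 1 of the 5 libraries was left out. Rcvrn, encoding the calcium sensor recoverin of the shut-off step, read 114 and 64.4 CPM in rd1 against 25.7, 21.9 and 17.5 CPM in WT. The groups did not overlap, and rd1 library 1 was the highest of all. The difference was 2.07 ± 0.50 (adjusted p = 0.0244, edgeR). Its adjusted p was 0.252 without rd1 library 1 and 0.0598, 0.0602 and 0.108 without WT libraries 1, 2 and 3.

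**Figure D2:**
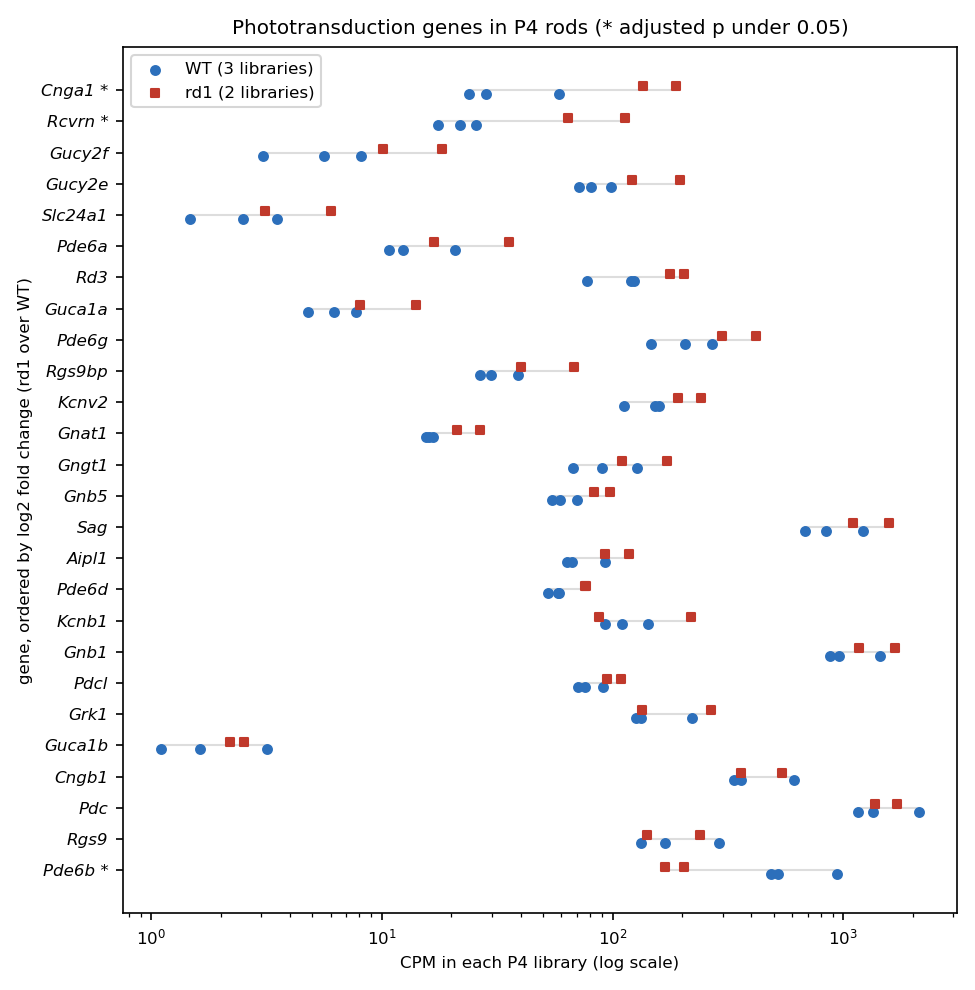
CPM of 26 phototransduction genes in each P4 library, on a log x axis, with genes on the y axis ordered by their log2 fold change. Red squares are the 2 rd1 and blue circles the 3 WT libraries, and an asterisk marks the genes past the threshold, Cnga1 and Rcvrn at the top and Pde6b at the bottom.

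The rest of the cascade did not pass the test, and its values are given as levels. Sag, which encodes the rod arrestin, read 1581 and 1100 CPM in rd1 against 1219, 841 and 682 CPM in WT, with overlap (0.58 ± 0.31, adjusted p = 0.332, edgeR). The cyclase genes Gucy2f and Gucy2e had differences of 1.37 and 0.95, and Rd3, which controls cyclase traffic, of 0.86, with no overlap in any of the 3. By role, the median difference was 0.60 for 3 transducin subunits, 0.53 for 5 phosphodiesterase genes, 0.66 for 5 channel and exchanger genes, 0.86 for 5 cyclase genes and 0.49 for 8 shut-off genes. In all, 24 of 26 genes had a positive difference, with a median of 0.59, beside 54.2% of protein-coding genes. Both rd1 libraries lay above all WT libraries for 13 of 26 genes, and below for Pde6b. The list's median was 0.34 without rd1 library 1 and 0.84 without rd1 library 2, so library 1 carried the larger part of the shift. In bulk samples such as these, fewer cells of a type and less RNA per cell cannot be told apart.

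Genes of the outer segment discs and their surrounding matrix also had mostly positive differences. Of 20 tested, 2 passed, both higher, beside 1.42% of protein-coding genes. A positive difference was found for 19, beside 54.2%, and the median was 0.53. Rdh8, a retinol dehydrogenase of the visual cycle, read 57.3 and 11.7 CPM in rd1 against 9.71, 7.34 and 5.25 CPM in WT. Only rd1 library 1 stood far above the WT libraries. Its difference of 2.25 ± 0.51 (adjusted p = 0.0158, edgeR) fell to 0.66 without rd1 library 1 (adjusted p = 0.631) and was 2.05 without WT library 3 (0.0893). Impg1, a proteoglycan of the matrix between photoreceptors, read 96.8 and 44.2 CPM in rd1 against 36.3, 22.7 and 22.3 CPM in WT. Its difference of 1.41 ± 0.36 (adjusted p = 0.0355, edgeR) fell to 0.72 without rd1 library 1 (adjusted p = 0.494), and its adjusted p was 0.0903 and 0.138 without WT libraries 2 and 3. None of 35 genes of the cilium and intraflagellar transport passed in edgeR or in DESeq2 (4 at an unadjusted p under 0.05), with a median of 0.17. Of 24 photoreceptor synapse genes 0 passed in edgeR (5 unadjusted) and 1 in DESeq2, with a median of 0.12.

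Among 16 photoreceptor transcription factors, 2 were higher in rd1 rods, beside 1.42% of all protein-coding genes. Thrb, the thyroid hormone receptor of the cone lineage, read 57.1 and 45.7 CPM in rd1 against 30.8, 24.5 and 21.3 CPM in WT, without overlap (1.04 ± 0.22, adjusted p = 0.00838, edgeR). Its adjusted p was 0.163 without rd1 library 1 and 0.0582 without WT library 3. Rax, a retinal progenitor homeobox gene, read 404 and 478 CPM in rd1 against 123, 140 and 198 CPM in WT (1.55 ± 0.43, adjusted p = 0.0488). Rax failed the test whichever 1 of the 5 libraries was left out, with adjusted p from 0.0725 to 0.275, and also with the overlapping non-coding gene Raxos1 added (adjusted p = 0.0519). Nrl, Crx and Nr2e3 differed by 0.37, 0.07 and 0.04, and none passed. Otx2 (-0.51) and Rxrg (-0.86) were lower in both rd1 libraries than in any WT library and did not pass. Both rd1 libraries lay below all WT libraries for 3 of the 16, beside 17.5% of protein-coding genes, and above for 4, beside 19.5%.

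The P4 difference was then set beside the change that WT rods undergo with age. Between P2 and P6, 212 protein-coding genes rose (1.42%) and 84 fell (0.564%) in WT rods by edgeR's quasi-likelihood test. Of the 212 rising genes, 9 were higher (4.25%) and 3 lower (1.42%) in rd1 at P4, beside 1.42% and 0.705% of all protein-coding genes. Their median P4 difference was 0.26, beside 0.04 for all protein-coding genes. The 9 were Cnga1, Rcvrn, Impg1, Hk1, Mmp2, Card19, Ccdc113, Nipal1 and Pvr. The 3 were Ablim1, Actn2 and Tnfrsf8, the last listed at 0 in both rd1 libraries and at 2.99 ± 0.99 CPM (SD, n = 3) in WT. Of the 84 falling genes 1 passed at P4, Timm50, which was higher in rd1 (1.19%, beside 1.42% of all protein-coding genes). For each gene, log2 levels were centred on the mean of the 3 WT libraries at P4. The rising genes then had a median of 0.51 in rd1 library 1 and -0.01 in rd1 library 2. In the WT libraries, which set the centre, it was 0.15, -0.03 and -0.08. The same genes had a median of -0.44 in WT rods at P2 and 1.09 at P6. Only rd1 library 1 thus lay clear of the WT libraries toward the P6 level.

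The genes with the largest rise in rd1 rods were of mixed function. Pnp, purine nucleoside phosphorylase, read 115 and 123 CPM in rd1 against 12.6, 20.1 and 9.75 CPM in WT, an 8.59-fold difference (3.10 ± 0.27, adjusted p = 1.3e-07, edgeR). Klhl33, a kelch-repeat gene, read 86.9 and 78.3 CPM in rd1 against 10.02, 6.04 and 10.4 CPM in WT (3.26 ± 0.42). Mmp2, a secreted matrix metalloproteinase, read 54.6 and 68.4 CPM in rd1 against 12.8, 14.5 and 14.2 CPM in WT (2.18 ± 0.19). All 3 kept well apart by genotype, and all 3 passed whichever 1 library was left out. The transcription factor gene Sox30 (3.34), the Wnt antagonist gene Sfrp4 (2.94), the acyl-CoA thioesterase gene Acot1 (3.13), A930018M24Rik (3.72) and 3632451O06Rik (2.36) also rose and also passed whichever 1 library was left out. The largest fitted values belonged to Scand1, a SCAN-domain gene (4.96 ± 1.18), and Nrtn, encoding the GDNF-family ligand neurturin (4.6 ± 1.15). Nrtn read 32.8 and 30.9 CPM in rd1 against 1.11, 1.12 and 1.67 CPM in WT. Both passed with all libraries (adjusted p = 0.0213 and 0.0297, edgeR), and both failed whichever 1 of the 5 was left out, with adjusted p from 0.0683 to 0.1 for Scand1 and 0.0786 to 0.122 for Nrtn. The same was true of Pcsk1n, which encodes the convertase inhibitor proSAAS (3.46 ± 0.83), with adjusted p from 0.0565 to 0.157. Ier5l (2.60) and Fbxl15 (2.43) rose too. Without rd1 library 2 their adjusted p was 0.290 and 0.111, without WT library 1 it was 0.126 and 0.0577, and without WT library 3 that of Ier5l was 0.0974.

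Several of the genes with a large fall were read in all WT libraries and at a few CPM or less in rd1. Col17a1, a transmembrane collagen of epithelial junctions, read 1.15 and 1.41 CPM in rd1 against 75.5, 79.3 and 106 CPM in WT (-6.04 ± 0.45, adjusted p = 6.99e-09, edgeR). Slc15a2, a peptide transporter gene, read 5.05 and 2.27 CPM in rd1 against 46.9, 110 and 125 CPM in WT (-4.65 ± 0.56). Eps8l1, an actin regulator gene (-4.68), and Hfm1, a helicase gene of meiotic recombination (-3.81), fell in the same way. In all 4 the groups did not overlap, and each gene passed whichever 1 library was left out and at all 4 other ages. Dnah9, an axonemal dynein gene, fell by 3.07 on the log2 scale, from 12.7, 19.5 and 16.1 CPM in WT to 1.61 and 2.12 CPM in rd1, and also fell at 1 other age. Ptchd2 (-3.02), Phf24 (-2.95) and Cldn34c1 (-2.78), a claudin-like gene, were lower at all 5 ages. The adjusted p of Ptchd2 rose to 0.136 and 0.108 without rd1 libraries 1 and 2, and that of Phf24 to 0.286, 0.0747 and 0.0543 without rd1 library 2 and WT libraries 1 and 3.

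Several of the strongest falls belonged to genes with a near-identical copy elsewhere in the genome. Ahcy, the enzyme that hydrolyses S-adenosylhomocysteine (chromosome 2, 155059310 to 155074497 on GRCm38), read 2.43 and 6.30 CPM in rd1 against 36.8, 39.0 and 37.2 CPM in WT (-3.08 ± 0.31, adjusted p = 1.01e-06, edgeR). Its copy Gm4737, annotated as protein-coding on chromosome 16 (46152997 to 46155077), read 46.0 and 51.8 CPM in rd1 against 0 in all 3 WT libraries. The 2 genes summed to 48.4 and 58.1 CPM in rd1 against 36.8, 39.0 and 37.2 CPM in WT, a difference of 0.53 ± 0.19 in the opposite direction (adjusted p = 0.131). Aligned without a gap, their coding parts differ at 4 of 1296 bases. Rpl26, encoding a ribosomal protein (chromosome 11, 68901583 to 68906989), read 49.1 and 49.4 CPM in rd1 against 283, 330 and 244 CPM in WT (-2.51 ± 0.17, adjusted p = 7.28e-10). Its processed pseudogene Gm15772 (chromosome 5, 3236431 to 3236868) read 193 and 193 CPM in rd1 and under 0.3 CPM in each WT library. With its copies added, Rpl26 differed by -0.21 ± 0.16 (adjusted p = 0.519), and the coding parts of the 2 differ at 2 of 435 bases. The sequences below are 120-base stretches of the annotated transcripts in GENCODE M21, 5′ to 3′, shown because so few bases, in capitals, tell gene and copy apart.
Ahcy: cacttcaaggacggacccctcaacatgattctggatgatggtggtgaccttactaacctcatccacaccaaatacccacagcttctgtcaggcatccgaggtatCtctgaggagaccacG
Gm4737: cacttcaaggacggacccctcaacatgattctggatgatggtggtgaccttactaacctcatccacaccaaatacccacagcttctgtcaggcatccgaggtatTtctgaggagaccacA
Rpl26: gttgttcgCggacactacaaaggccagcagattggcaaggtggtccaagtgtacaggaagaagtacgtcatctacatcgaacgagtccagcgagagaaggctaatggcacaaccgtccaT
Gm15772: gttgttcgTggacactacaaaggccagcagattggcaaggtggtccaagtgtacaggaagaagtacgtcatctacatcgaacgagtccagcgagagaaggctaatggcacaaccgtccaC

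**Figure D3:**
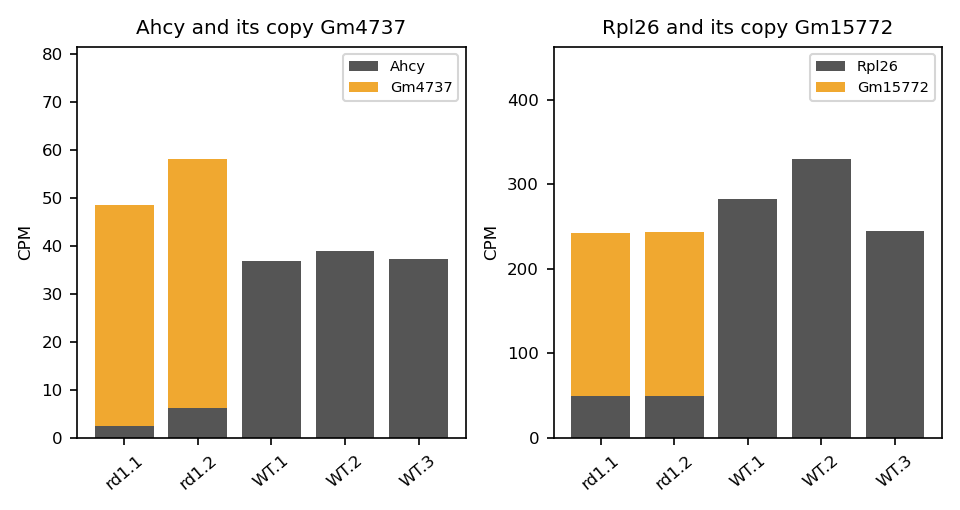
CPM in each P4 library for Ahcy with its copy Gm4737 and Rpl26 with its copy Gm15772, stacked. In rd1 most of the CPM of each pair sits in the copy, and in WT all but a trace sits in the gene.

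The same sum was made for every protein-coding gene past the threshold that shares enough 31-base words with another gene, here called its copy. A copy shares at least 20 words, which are at least 10% of the gene's words or at least 50% of its own. It need not be near-identical: the copy of Masp2 is Tardbp and that of 1700123O20Rik is Acin1. Of 54 higher genes with such a copy, 28 still passed and 26 did not when the copies' counts were added. Of 40 lower genes, 19 still passed, 20 did not and 1 passed in the opposite direction. A sum can hide a change in a gene whose copy is read more deeply, so these counts do not show that the genes were unchanged. Duxbl1 (-6.42), a double homeobox gene, became -0.95 (adjusted p = 0.193) with Duxbl2 and Duxbl3, and Rpl35a (-1.75) became -0.57 (adjusted p = 0.0600) with 9 copies. Tmsb15b1 (-4.89), a thymosin gene, became -0.99 (adjusted p = 0.0174). Rpl21 (-2.47), Pnp, Acot1 and Scand1 kept their direction and passed, at -2.48, 3.02, 2.18 and 2.23, while Fbxl15 summed with the overlapping Cuedc2 gave 0.27 (adjusted p = 0.361). Where at least 20% of a gene's 31-base words were shared, 3.77% of protein-coding genes passed, against 1.90% of the others.

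Predicted genes and pseudogenes were kept apart from these counts. Of 1925 predicted genes 110 passed (5.71%), 32 higher (1.66%) and 78 lower (4.05%). Of 709 pseudogenes 76 passed (10.7%), 44 higher (6.21%) and 32 lower (4.51%). Of 1084 other non-coding genes 46 passed (4.24%), 11 higher (1.01%) and 35 lower (3.23%). Among pseudogenes that share at least 20% of their words with another gene 15.2% passed, and among the rest 1.72%. Those with the largest rise were read almost in rd1 alone. Besides Gm15772, Rpsa-ps10, a copy of a ribosomal protein gene, read 344 and 542 CPM in rd1 against 0, 1.01 and 0.426 CPM in WT, and Gm13443 read 119 and 107 CPM in rd1 and at most 0.175 CPM in WT. The largest falls were Gm26735, at 0 in both rd1 libraries and at 85.6, 125 and 104 CPM in WT, and Gm38287 and Gm10698, also at 0 in both rd1 libraries. Each of these 6 shares at least 86.5% of its words with other genes. Genes at 0 in a group have no fold change here, because the fitted value depends on a small constant added to the counts.

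Few listed genes of one-carbon and purine metabolism passed, as did 2.13% of all protein-coding genes. Of 28 genes of one-carbon, methionine and serine metabolism, 1 passed, Ahcy, which fell, with a median of 0.06. Of 32 listed purine and cyclic nucleotide genes Nme1, a nucleoside diphosphate kinase gene, passed (-1.65 ± 0.38, adjusted p = 0.0179). Pnp, a purine salvage gene with one of the largest rises, is not on that list. Nme1 had adjusted p of 0.214 and 0.115 without rd1 libraries 1 and 2, and -0.66 (adjusted p = 0.311) when summed with the overlapping readthrough gene Gm20390. Slc7a11, the cystine transporter, was the 1 of 38 antioxidant and glutathione genes that passed. It read 24.3 and 24.6 CPM in rd1 against 8.83, 7.98 and 10.5 CPM in WT (1.45 ± 0.23, adjusted p = 0.000527, edgeR). Its coding transcript Slc7a11-001 had a mean of 37.4 CPM in rd1 against 1.32 CPM in WT. The intron-retaining Slc7a11-002 went the other way, with 1.60 against 3.63 CPM. These transcript levels do not add up to the gene level. Parp2, which uses NAD in DNA repair, was the 1 of 19 NAD genes (0.75 ± 0.16, adjusted p = 0.00784), and its adjusted p was 0.221 without rd1 library 2.

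Energy metabolism showed few changes, beside 2.13% of all protein-coding genes past the threshold. Of 28 glycolysis and lactate genes 1 passed, Hk1, the hexokinase that starts glycolysis. Hk1 read 172 and 96.7 CPM in rd1 against 64.3, 62.2 and 67.9 CPM in WT (1.08 ± 0.28, adjusted p = 0.0390, edgeR). It did not overlap, but its difference fell to 0.59 without rd1 library 1 (adjusted p = 0.476), and its adjusted p was 0.0828 to 0.114 with any 1 WT library left out. The list's median was 0.33, 22 of 28 differences were positive and 14 genes had both rd1 libraries on top, beside 19.5% of protein-coding genes. Of 28 fatty acid oxidation and peroxisome genes Acot1 alone passed. No gene passed in edgeR among 34 of the TCA cycle, 22 of cholesterol synthesis, 13 of complexes II and III, 12 of complex IV or 16 of complex V, with medians of 0.09 to 0.19. At an unadjusted p under 0.05 these lists had 2, 2, 3, 3 and 2 genes, and DESeq2 called 0, 0, 1, 1 and 1.

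Of 36 complex I genes encoded in the nucleus 0 passed in edgeR or DESeq2 (4 at an unadjusted p under 0.05), with a median of 0.20. Of the 317 protein-coding genes past the threshold, 313 could be tested from their coding transcripts alone. Of these, 304 kept their sign, 179 passed in the same direction and 9 changed sign, among them Eif1ax, Osgep and Rpl12.

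Transcripts of the mitochondrial genome stood lower in rd1 rods. All 13 protein-coding genes of that genome had a negative difference, with a median of -0.49, and 8 lay below all WT libraries, beside 17.5% of protein-coding genes. Their summed level was 19471 and 20733 CPM in rd1 against 27748, 34610 and 24370 CPM in WT, without overlap. Only mt-Nd3, a complex I subunit, passed the test, at 57.7 and 33.1 CPM in rd1 against 247, 385 and 241 CPM in WT (-2.64 ± 0.52, adjusted p = 0.00396, edgeR). Its adjusted p was 0.138 without rd1 library 2. The nuclear copy Gm28438, which holds 98.1% of the 31-base words of mt-Nd3, read 122 and 142 CPM in rd1 against 55.0, 26.0 and 25.8 CPM in WT. The 2 together differed by -0.85 (adjusted p = 0.196). The next largest difference was that of mt-Co2, a complex IV subunit (-1.50 ± 0.41, adjusted p = 0.0516). The genes of this list have a median GC content of 37.1%, and the part of base composition in the result was not tested.

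Of 54 genes of mitochondrial dynamics, import and quality control, 3 passed, all higher, beside 1.42% of protein-coding genes. Chchd10, a protein of the cristae, read 47.3 and 35.6 CPM in rd1 against 14.0, 13.7 and 13.4 CPM in WT (1.63 ± 0.41, adjusted p = 0.0308, edgeR). Timm50, an import receptor gene, and Phb2, a prohibitin gene, differed by 0.54 ± 0.14 and 0.47 ± 0.12 (adjusted p = 0.0386 and 0.0355). Each of the 3 lost its call when single libraries were left out. Chchd10 failed whichever 1 of the 5 was left out (adjusted p from 0.0681 to 0.228), and Timm50 failed without rd1 library 2 (0.531) or any 1 WT library (0.0548 to 0.151). Phb2 failed without rd1 library 1 or 2 (0.222 and 0.168) or WT library 1 or 3 (0.0989 and 0.127). Of 35 mitochondrial translation and genome genes, Mrpl27 alone passed, lower (-0.97 ± 0.23, adjusted p = 0.0237), with adjusted p of 0.305, 0.0550 and 0.0574 without rd1 library 1 and WT libraries 1 and 2.

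Lists of stress and death showed no gene past the threshold of edgeR. Of 33 unfolded protein and integrated stress response genes 0 passed (9 at an unadjusted p under 0.05, 3 by DESeq2), with a median of 0.39. The nearest were the stress transcription factor gene Atf5 (0.88, adjusted p = 0.0546) and the secreted stress cytokine gene Gdf15 (3.57, adjusted p = 0.0574). Of 33 cell death genes 0 passed (4 unadjusted, 1 by DESeq2), with a median of 0.06. Of 17 heat shock genes 0 passed (5 unadjusted, 1 by DESeq2), although all 17 differences were positive, with a median of 0.34 and both rd1 libraries on top for 9, beside 19.5% of protein-coding genes. Hspa8, a constitutive chaperone gene, read 691 and 815 CPM in rd1 against 481, 688 and 498 CPM in WT. Of 27 calcium handling genes 0 passed (1 unadjusted, 0 by DESeq2), with a median of -0.07. Of 31 proteasome genes Psmb5 and Psma3 fell, by 0.68 and 0.42 on the log2 scale, beside 0.705% of all protein-coding genes. Their adjusted p of 0.0187 and 0.0429 (edgeR) became 0.134 and 0.226 without rd1 library 1 and 0.208 and 0.298 without rd1 library 2. With copies added they differed by -0.47 and -0.31 (adjusted p = 0.110 and 0.185), and from coding transcripts alone Psma3 differed by -0.03 (adjusted p = 0.975). Psmb5 also failed without WT library 2 (0.0549) and Psma3 without WT library 1 or 2 (0.110 and 0.113). Of 49 cytosolic ribosomal protein genes on the list Rpl26 and Rpl15 fell, Rpl15 by 0.97 (adjusted p = 0.00665 in edgeR, 0.147 without rd1 library 1). The falls of Rpl26 and Rpl15 stand beside 0.705% of all protein-coding genes lower. The list does not hold every such gene, and outside it Rpl21, Rpl35a and Rpsa (-1.08) fell and Rpl12 rose (0.92). With copies added Rpsa differed by 0.37 (adjusted p = 0.316) and Rpl12 by 0.27 (adjusted p = 0.467).

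Immediate early genes, which dissociation can induce, differed between libraries. Of 27 tested, Jund and Klf2 passed, both higher in rd1, beside 1.42% of protein-coding genes. For 12 both rd1 libraries were on top, beside 19.5%, and the median was 0.77. Their summed level was 3060 and 3476 CPM in rd1 against 881, 2694 and 1049 CPM in WT, so WT library 2 stood near the rd1 libraries. Fos, for example, read 472 and 420 CPM in rd1 against 5.02, 360 and 33.4 CPM in WT. Jund read 382 and 345 CPM in rd1 against 46.9, 96.4 and 81.1 CPM in WT (2.31 ± 0.52, adjusted p = 0.0150, edgeR), but did not pass without rd1 library 1 or 2 (0.0929 and 0.0681) or WT library 1 or 3 (0.0904 and 0.0552). Klf2 (3.09 ± 0.75, adjusted p = 0.0263) did not without the same libraries, with adjusted p from 0.0805 to 0.165. Without WT library 2 the list's median was 1.49. Their part in the heat shock and stress values above was not tested.

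Markers of other retinal cells were also compared, beside 2.13% of all protein-coding genes past the threshold. The 16 amacrine and horizontal cell markers had 1 positive difference and a median of -0.63, with a summed level of 702 and 802 CPM in rd1 against 993, 1141 and 1306 CPM in WT. None passed in edgeR or DESeq2, and 3 had an unadjusted p under 0.05. The 14 ganglion cell markers had a median of -0.88, and the neurofilament gene Nefh was the 1 that passed, higher in rd1 (1.24 ± 0.21, adjusted p = 0.00115 in edgeR, 0.0893 without rd1 library 1). Microglia markers summed to 57.3 and 47.6 CPM in rd1 against 27.7, 22.8 and 38.3 CPM in WT, with 0 of 16 past the threshold in edgeR or DESeq2 and 5 at an unadjusted p under 0.05. Cone markers summed to 1343 and 1484 CPM in rd1 against 2161, 1968 and 1867 CPM in WT, and Thrb was the 1 of 13 that passed. Their part in the differences above was not tested.

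Differences at P4 also followed the GC content of transcripts. Over 14805 protein-coding genes the rank correlation between GC content and fold change was 0.245, given as a description because all genes share the same 5 libraries. The 10% of genes lowest in GC content had a median of -0.10, with 12 genes higher and 17 lower, and the 10% highest a median of 0.29, with 61 higher and 3 lower. Genes past the threshold had a median GC content of 53.9% when higher and 48.1% when lower, beside 49.98% for those not called. With each library's GC trend taken out, an alternative chosen after seeing the data, 260 protein-coding genes passed, 231 of them shared, and 58.1% were higher in place of 66.9%. The phototransduction median was 0.53 after that correction.

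**Figure D4:**
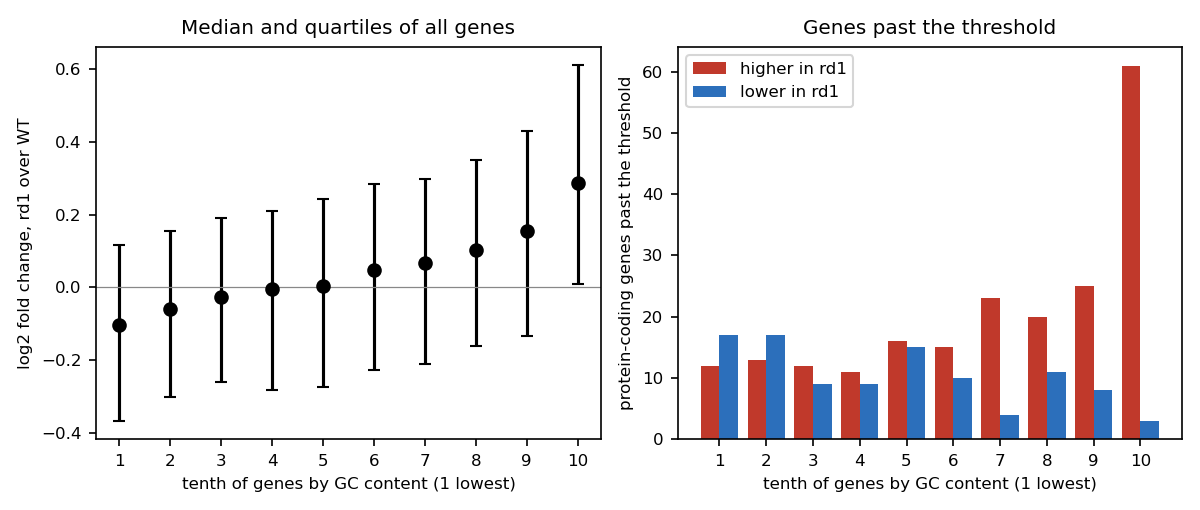
Left, median (point) and quartiles (bars) of the P4 log2 fold change, rd1 over WT, in 10 equal groups of protein-coding genes ordered by GC content on the x axis. Right, the number of genes higher (red) and lower (blue) past the threshold in each group, with 61 higher and 3 lower in the highest.

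Most genes past the threshold at P4 also differed at another age in separate libraries. Of the 212 higher genes, 100 were also higher at P2 (47.2% of the P4 genes and 51.5% of the P2 genes) and 113 at P6 (53.3% and 59.8%), where 1.3% and 1.27% of protein-coding genes were higher. At P8 48 were higher, and at P10 150, beside 0.927% and 8.5% of protein-coding genes. In the opposite direction 6 were called at P8 and 2 at P10, and 115 of the 212 had a positive difference at P8. Of the 105 lower genes 58, 59, 47 and 68 were lower at P2, P6, P8 and P10, beside 0.745%, 0.752%, 2.38% and 4.24%. All 4 other ages gave the same direction for 33 higher and 37 lower genes, and none did for 30 and 22. Pnp, Klhl33, Slc7a11 and Acot1 were higher and Pde6b, Col17a1, Slc15a2, Eps8l1, Hfm1, Ahcy, Rpl21 and Rpl26 lower at all 5 ages. Cnga1, Rcvrn, Impg1 and Hk1 passed at no other age. Cnga1 had differences of 1.21, 1.27, -0.43 and -0.45 at P2, P6, P8 and P10, and Rcvrn of 0.93, 1.02, -0.88 and 0.48.

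**Figure D5:**
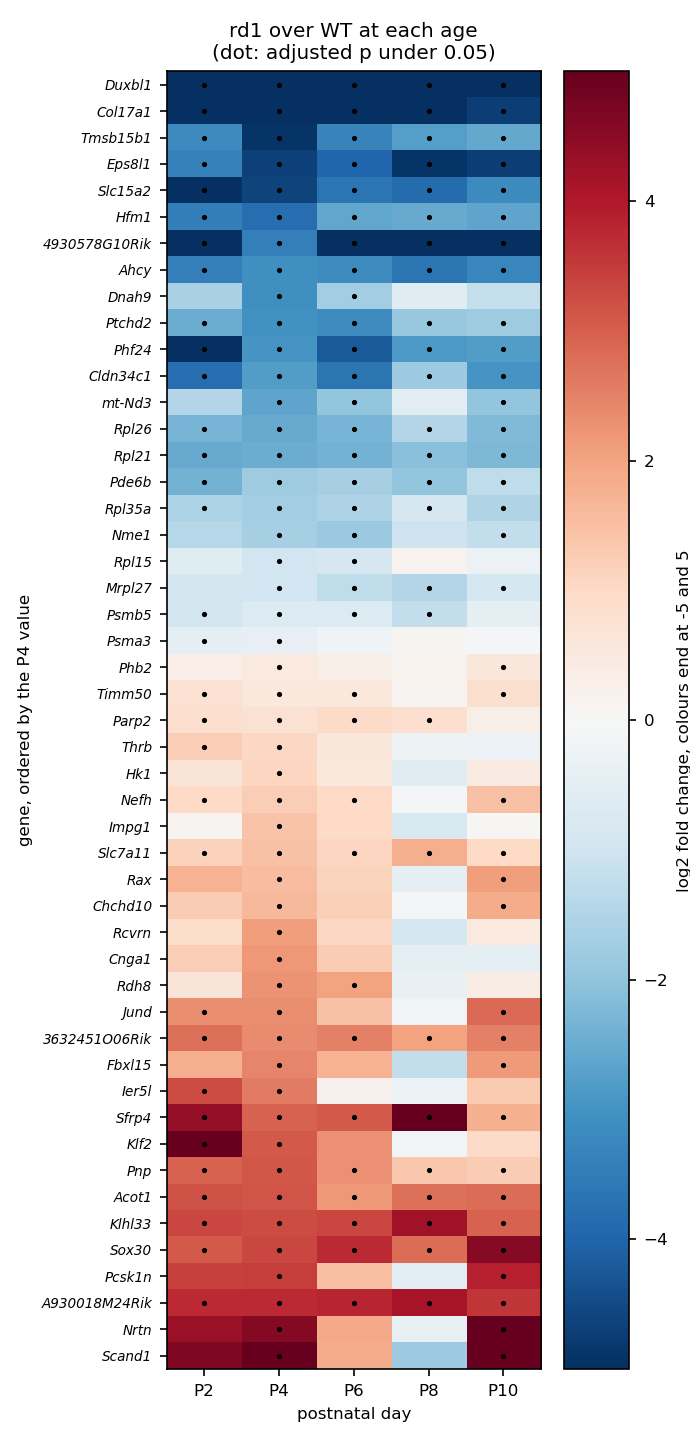
Log2 fold change, rd1 over WT, at each of 5 ages (x axis) for 49 protein-coding genes named by rule and past the threshold at P4 (y axis, ordered by the P4 value), with red higher and blue lower in rd1. Dots mark an adjusted p under 0.05, and Duxbl1 and Col17a1 carry dots at all 5 ages while Cnga1, Rcvrn, Impg1 and Hk1 carry one at P4 alone.

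A test of whether the P4 difference departs from the mean of the other 4 ages found 1 gene of 18608 (0.00537%) at an adjusted p under 0.05, 983 at an unadjusted p under 0.05, and 26 at the same threshold by DESeq2. For Cnga1 the P4 difference exceeded that mean by 1.77 ± 0.43 (adjusted p = 0.347, edgeR) and for Rcvrn by 1.68 ± 0.56 (adjusted p = 0.836), so neither was shown to be particular to P4. For Pde6b it was 0.06 ± 0.35. The 1 gene was Pttg1, encoding securin, an inhibitor of sister chromatid separation. It read 12.2 and 24.0 CPM in rd1 against 8.10, 12.3 and 6.77 CPM in WT at P4, with overlap. Its coding transcripts did not move together at P4. Pttg1-001 had a mean of 0.208 CPM in rd1 against 3.95 CPM in WT. Pttg1-003 had 3.03 against 1.73 CPM and Pttg1-008 12.7 against 3.00 CPM. Mmp2 came next among named genes that rose, with an excess of 1.12 ± 0.22 (adjusted p = 0.0842).

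Genes close to Pde6b were also counted, as a description with no test. Within 10 Mb of Pde6b on chromosome 5, 11 of 178 protein-coding genes passed (6.18%), 9 higher and 2 lower, against 305 of 14711 elsewhere (2.07%). Within 5 Mb the share was 9.30% and within 20 Mb 4.86%. The 11 were Hfm1 and A930011G23Rik, lower, and Fam69a, Crlf2, Zfp605, Lpcat2b, Lrrc8b, Lrrc8d, Fbrsl1, Coq5 and Srsf9, higher. Crlf2, a cytokine receptor gene 1.15 Mb away, averaged 14.5 ± 0.20 CPM (SD, n = 2) in rd1 and 3.83 ± 1.42 CPM (SD, n = 3) in WT (1.94 ± 0.37, adjusted p = 0.00329, edgeR). Fam69a, 0.463 Mb away, differed by 2.17 ± 0.23. Summed with Rpl5, which shares sequence with it, it differed by 0.45 (adjusted p = 0.132, edgeR). That sum was 98.9, 92.1 and 101 CPM in WT, where Fam69a alone averaged 14.1 CPM. Most of it was thus Rpl5, and the sum can hide a change in Fam69a.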

How the data were processed

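Rods were sorted and sequenced by the authors as poly(A) libraries read as paired ends. The gene table deposited by the authors holds estimated counts per gene, which need not be whole, made from the reads with tools named in the submitters' processing notes. A CPM table, deposited beside it, scales each count to a common library total, and a further table holds transcripts. The tools and build, kallisto 0.42.4, edgeR 3.32.1 and GRCm38.p5, are named without a role, per the submitters' processing notes. The deposited CPM equal each count divided by its library total, to within 5.82e-11, so they are not corrected for composition. Each of the 3 tables has 1 further column that matches no sample, and it was not used.

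For the tests, counts were rounded to whole numbers, genes with low counts were removed by filterByExpr, and libraries were scaled by TMM in edgeR 4.0.16 under R 4.3.3. One quasi-likelihood model held all 10 groups of genotype and age, with 27 samples and 17 residual degrees of freedom. The P6 rd1 replicates 1 and 3 were averaged and counted as 1 sample because they differed far less than others (chi-square per degree of freedom 2.71, against 10.4 to 120 in 28 other pairs and 17.4 to 33.4 at P4). Of 45594 genes 18608 were tested, and an adjusted p under 0.05 was called. The standard error is the fold change divided by the root of its F statistic. With 2 against 3 libraries, an exact permutation test of 1 gene could not go below a p of 0.1, so none is given. In simulated P4 counts of 18396 genes with 200 changed, 40% of 2-fold and 83% of 4-fold changes were recovered, with 3.91% false calls. The 200 were picked from genes averaging at least 1 CPM. Counts were drawn gene by gene, with no GC trend between libraries, so these rates need not hold in the real data.

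The members and gene lists were chosen with earlier results of these data known. Genes were named by a rule: Pde6b, then, among named protein-coding genes that were called, had groups without overlap and averaged log2 CPM of 1 or more, the 12 with the largest change each way and the 10 with the smallest p, up to 4 genes past the threshold per list, the 6 each way with the smallest p for the P4 effect against other ages, and 3 predicted genes and 3 pseudogenes each way. Hspa8, Fos, Otx2, Rxrg, Atf5, Gdf15, mt-Co2, the genes of the chromosome 5 window, the maturation genes and those of the closing observations were chosen after their values were seen. A copy is a gene that shares 31-base words with another in GENCODE M21 (98.5% of transcripts matched). A symbol with 2 identifiers was counted once in a list, and 92 tested genes lie on patch sequences, 3 of them protein-coding and past the threshold. Alternatives were DESeq2 1.42.0, RLE size factors, no filter, only the P4 libraries, all 28 libraries apart, a replicate block, equal depth, each P4 library left out, and, chosen after seeing the data, GC-corrected offsets, coding transcripts only and copies summed. A few genes are not reported here and were left out of the lists, though they stayed in the model and in the counts over all genes.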

Additional observations from a re-analysis of the deposited data

Results flagged for a closer look

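Pttg1 (securin) was the 1 gene whose rd1 effect at P4 differed from the mean effect at P2, P6, P8 and P10, by 2.00 ± 0.30 on the log2 scale (adjusted p = 0.0208, edgeR's quasi-likelihood interaction test). Its difference was 1.46 at P2, 1.02 at P4 (adjusted p = 0.0375), -0.27 at P6, -2.02 at P8 and -3.09 at P10. That test called 0 genes without WT library 1 or WT library 3, where 840 and 591 genes had an unadjusted p under 0.05. The P4 call did not hold without rd1 library 2 (adjusted p = 0.613), WT library 1 (0.140) or WT library 3 (0.162). Of the 37 genes of the cell cycle and progenitor list at P4, on which Pttg1 is not, 0 passed in edgeR or DESeq2 and 2 had an unadjusted p under 0.05, with a median of 0.14.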

How the results depend on the processing

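Counts of genes past the threshold at P4 depended on the method and on single libraries, and the cause was not tested. Over all genes, 549 passed (299 higher, 250 lower), against 878 (461 and 417) with DESeq2, and 519 were higher with no filter on low counts. For protein-coding genes the 317 (212 and 105) became 576 (370 and 206) with DESeq2, 517 with no filter (400 higher, a share of 77.4% in place of 66.9%) and 507 (327 and 180) from only the P4 libraries, of which 310, 277 and 230 were shared with the 317. Leaving out 1 library gave 195 to 873 genes (117 to 508 higher, 78 to 365 lower) and 103 to 551 protein-coding genes (70 to 387 higher, 33 to 164 lower). The protein-coding count was 118 and 103 without rd1 library 1 or 2, 160 and 155 without WT library 1 or 3, and 551 without WT library 1 of P6, which enters through the shared spread. For the P4 effect against other ages, the 1 gene became 26 with DESeq2, 34 with no filter, 2 with all 28 libraries apart, and 0 to 15 with 1 library left out (15 without rd1 library 2, 0 without WT library 1 or 3, with 840 and 591 at an unadjusted p under 0.05). The 318 genes that changed in WT from P2 to P6 became 814 with DESeq2 and 218 without WT library 1 of P6. Phototransduction genes higher at P4 were 5 with no filter and 1 to 2 with 1 library left out, and Pde6b stayed lower (-1.94 to -1.39), past the threshold except without rd1 library 2 (-1.61). Ahcy changed sign with its copy added (0.53). Of 64 named genes past the threshold, 30 kept direction and call under every alternative planned, and 34 lost the call without some P4 library.

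Replicate numbers did not pair the samples: the deviations of same-numbered P4 libraries correlated at 0.0383 and 0.0905, and over all ages at -0.238 to 0.138. With the replicate block, 297 genes passed (150 higher, 147 lower), 152 of them protein-coding (94 and 58), 146 of which were among the 317, and 1 phototransduction gene was higher. Depth limits the low genes: 3 counts are 0.160 CPM in rd1 library 1.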

Other observations

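On chromosome 14, 12 of 58 protein-coding genes between 50 and 55 Mb passed the test (20.7%), 10 higher and 2 lower in rd1, the most genes of any 5-Mb window tried. Of 556 windows, 386 held no gene past the threshold and 13 held 5 or more. The window was chosen after its values were seen. It holds Pnp, Klhl33, A930018M24Rik, Parp2, Osgep and the RNase A family genes Rnase9 and Rnase11, which start between 50807946 and 51049451 on GRCm38. Rnase9 read 19.3 and 28.02 CPM in rd1 against 0 in all 3 WT libraries, and Rnase11 1.56 and 1.89 CPM in rd1 against 0 in all 3 WT libraries. Further on, Abhd4 (1.15), Lrp10 (0.74) and 1700123O20Rik (0.84) were higher and Psmb5 (-0.68) and Ppp1r3e (-1.62) lower. With copies added, Psmb5 differed by -0.47 (adjusted p = 0.110, edgeR). 1700123O20Rik differed by -0.23 (adjusted p = 0.541, edgeR) when summed with Acin1, a different gene that shares part of its 31-base words. That sum was 386 and 383 CPM in rd1, of which 1700123O20Rik read 43.8 and 54.4 CPM, so it says little about 1700123O20Rik. From coding transcripts alone, Ppp1r3e differed by 1.93 (adjusted p = 0.410) and Osgep by -0.26 (adjusted p = 0.422), both with the sign changed and neither past the threshold in edgeR. Of the 12, 3 passed in the same direction at all 4 other ages, and of the other 305 genes past the threshold 67 did.

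On chromosome 4 near 42 Mb, the 2 rd1 libraries stood apart from each other. Phf24 read 15.4 CPM in rd1 library 1 and 1.38 CPM in library 2, against 76.5, 64.8 and 59.1 CPM in WT. Fam205c read 3.84 and 0 CPM in rd1 against 10.97, 14.3 and 9.99 CPM in WT, and 4930578G10Rik 2.53 and 0.0380 CPM in rd1 against 12.9, 13.3 and 15.6 CPM in WT. The predicted gene Gm10600, which starts at 42240639, read 25.1 and 0 CPM in rd1 against 114, 84.9 and 110 CPM in WT. In each of the 4 genes rd1 library 1 lay between rd1 library 2 and the WT libraries.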
